A study of Mus musculus with 18 samples.

Results

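The Id and Smad response genes are 10 mouse genes linked to bone morphogenetic protein (BMP) and activin signalling. Their names are Id1, Id2, Id3, Id4, Smad1, Smad5, Smad9, Smad6, Smad7 and Bambi. They were taken by gene symbol from a table of 46583 genes, each symbol stood on 1 row, and all 10 passed the filter on low counts that left 17901 genes for testing. RNA was sequenced from the cochlea of 4-week-old mice, cut into base, middle and apex, that carried a conditional knock-out of Fst (Fst cKO) or were controls, labelled as wild type and untreated. This makes 6 groups, the base, middle and apex of the Fst cKO and of the control. Each group was 1 RNA pool from which 3 technical libraries were made, so 18 libraries stand for 6 pools. The driver of the conditional deletion, the number of mice in a pool and their sex are not given in the sources used here.

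BMPs bind pairs of type I and type II receptor kinases, which phosphorylate the receptor-regulated Smad proteins encoded by Smad1, Smad5 and Smad9. These join Smad4 and enter the nucleus, where they switch on early target genes, among them the Id genes and the inhibitors Smad6, Smad7 and Bambi, which damp the pathway again. Activins and TGF-beta use Smad2 and Smad3 in the same way, and Smad7 and Bambi also answer to that branch. Id proteins are helix-loop-helix proteins without a DNA-binding region that hold E proteins, such as the product of Tcf3, away from DNA, and in the mouse cochlea they are known to restrain hair cell formation. Follistatin, the product of Fst, is secreted and binds activins and, less tightly, some BMPs. The comparisons ask how the RNA level of the 10 genes differs between the genotypes in each region and along the cochlea. Smad phosphorylation was not measured here.

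Because a pool was not repeated, every p-value carries the spread between technical libraries and not between mice, and each contrast sets 1 pool against another. A gene was counted as passing at a Benjamini-Hochberg adjusted p under 0.05 (edgeR quasi-likelihood test over all 17901 genes), and as called when its log2 change was also at least 1 in size. Library totals ran from 24446765 to 33732709 counts, and the 10 genes had 349 to 5431 counts in a library. Fst averaged 1.86 ± 0.122 CPM (counts scaled to the library total) in the base, 2.99 ± 0.348 in the middle and 9.84 ± 0.395 in the apex of the Fst cKO, against 2.17 ± 0.211, 6.37 ± 0.573 and 24.4 ± 0.882 CPM in base, middle and apex of the control (SD, n = 3 libraries here and below). Fst was lower in the Fst cKO in middle and apex, and in the base, where it was lowest, its log2 change of -0.22 ± 0.15 (adjusted p = 0.308) did not pass. Markers of hair cells and supporting cells were detected in all 6 pools, with no marker of either list at 0. Xist stood at 58.9 to 87.5 CPM in the 3 Fst cKO pools and at 297 to 371 CPM in the 3 control pools, so the mix of sexes and the genotype cannot be told apart. In bulk RNA, fewer cells of a type and less RNA per cell cannot be told apart either.

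Start-site windows from RefSeq on GRCm38.p6, 250 bases before to 50 bases after the start, were searched in 7 of the 10 genes. Id1, Smad7 and Bambi, all higher in the Fst cKO apex, were not among these 7, so the motif counts leave them out. Windows are shown for Id3 and Smad6, which were higher in the Fst cKO apex, and for Id2 and Smad9, which were lower there. Capitals mark GGCGCC, the core of BMP response elements, and GTCTAGAC, the palindromic Smad box, searched on both strands, where each reads the same.
Id3, chr4:136143572-136143871, plus strand: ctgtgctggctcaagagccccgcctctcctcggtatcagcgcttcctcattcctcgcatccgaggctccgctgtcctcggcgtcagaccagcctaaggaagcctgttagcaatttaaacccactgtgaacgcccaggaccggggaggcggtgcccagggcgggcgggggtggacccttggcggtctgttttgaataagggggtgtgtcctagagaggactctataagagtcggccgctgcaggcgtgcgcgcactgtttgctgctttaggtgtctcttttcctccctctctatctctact
Smad6, chr9:64022010-64022309, minus strand: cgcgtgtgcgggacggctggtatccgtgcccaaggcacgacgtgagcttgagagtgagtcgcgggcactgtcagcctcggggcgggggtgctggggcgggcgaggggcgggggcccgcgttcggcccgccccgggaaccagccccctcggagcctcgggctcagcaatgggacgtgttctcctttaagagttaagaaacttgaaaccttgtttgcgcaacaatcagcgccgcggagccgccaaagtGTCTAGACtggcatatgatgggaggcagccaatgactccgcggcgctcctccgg
Id2, chr12:25096043-25096342, minus strand: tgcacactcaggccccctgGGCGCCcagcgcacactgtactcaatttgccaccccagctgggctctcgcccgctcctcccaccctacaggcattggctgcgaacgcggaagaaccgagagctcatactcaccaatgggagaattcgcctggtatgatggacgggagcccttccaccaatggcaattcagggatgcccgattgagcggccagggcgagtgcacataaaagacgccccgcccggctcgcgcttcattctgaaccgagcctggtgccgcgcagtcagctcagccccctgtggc
Smad9, chr3:54755332-54755631, plus strand: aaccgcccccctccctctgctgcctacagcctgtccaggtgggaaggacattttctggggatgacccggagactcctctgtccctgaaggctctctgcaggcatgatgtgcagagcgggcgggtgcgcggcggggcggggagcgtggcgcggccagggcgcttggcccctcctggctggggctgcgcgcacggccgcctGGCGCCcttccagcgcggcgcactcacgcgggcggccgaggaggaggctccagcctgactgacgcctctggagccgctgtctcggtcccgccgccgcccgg
The Smad6 window holds the Smad box, beginning 4 bases before the start, and 0.213% of 32851 windows of this length hold it. GGCGCC stood 231 bases before the start of Id2 and 51 before that of Smad9, and also in windows of Id4 and Smad5, which makes 4 of the 7 genes against 13.4% of 27025 genes. These windows are rich in G and C, from 60.0% in Id3 to 73.7% in Smad9 for the 4 shown, where the median window has 52.7%, and no match to either motif was found in the Id3 window. The composite BMP response element, a GC site followed at a fixed distance by a Smad box, which can overlap GGCGCC, had 0 matches in the 7 genes and stood in 0.244% of all windows. A match describes letters and is not a bound site.

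Per length of transcript, the Id genes were the most abundant. In FPKM, the authors' value scaled by length and depth, Id3 ran from 139 to 191, Id1 from 58.0 to 109, Id2 from 52.1 to 71.1 and Id4 from 17.6 to 37.0 over the 18 libraries. The Smad genes were lower. Smad1 ran from 10.8 to 14.5 FPKM, Smad5 from 11.2 to 15.5, Smad6 from 7.76 to 15.2, Smad9 from 6.12 to 11.8 and Smad7 from 5.75 to 9.0, and Bambi, a decoy receptor without a kinase, was lowest at 2.49 to 3.86. Levels of a single gene are given below in CPM. Between the highest and the lowest of the 6 groups the mean CPM differed by 1.25 times for Smad1 to 1.96 times for Id4.

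The genes lie on 8 chromosomes of GRCm38/mm10, by GENCODE release M21, and all are protein coding. Id1 (ENSMUSG00000042745) is on chromosome 2 from 152736251 to 152737410, Id3 (ENSMUSG00000007872) on chromosome 4 from 136143497 to 136145755, Smad5 (ENSMUSG00000021540) on chromosome 13 from 56703010 to 56742377, Smad9 (ENSMUSG00000027796) on chromosome 3 from 54755582 to 54801257, Id4 (ENSMUSG00000021379) on chromosome 13 from 48261228 to 48266026, Smad7 (ENSMUSG00000025880) on chromosome 18 from 75367529 to 75395935 and Bambi (ENSMUSG00000024232) on chromosome 18 from 3507923 to 3516404, all on the plus strand. Id2 (ENSMUSG00000020644) on chromosome 12 from 25093799 to 25097140, Smad1 (ENSMUSG00000031681) on chromosome 8 from 79338395 to 79399518 and Smad6 (ENSMUSG00000036867) on chromosome 9 from 63953076 to 64022059 are on the minus strand. The Id genes are short, from 1160 bases for Id1 to 4799 for Id4, while the 5 Smad genes span 28407 to 68984 bases. The opposite-strand genes A330033J07Rik and Gm49291 each hold 774 exon bases of Id4 within their span. A330033J07Rik had 1023 counts over all libraries against 19082 for Id4, and no count was found for Gm49291. Reads of the overlap cannot be assigned by strand if the kit does not mark it.

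**Figure D1:**
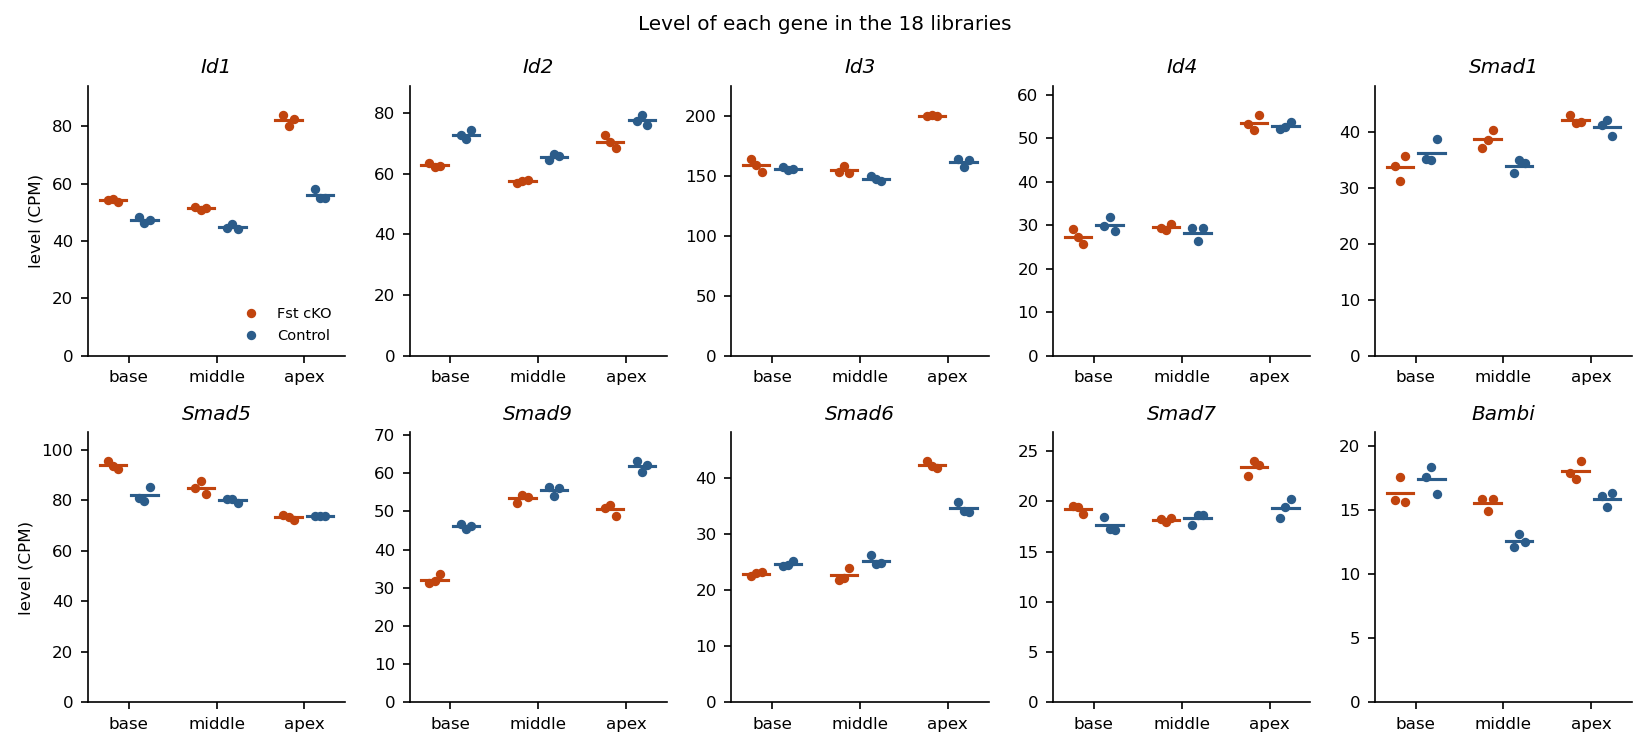
Level of each of the 10 genes in CPM (y axis, from 0) in every library, by region (x axis), with Fst cKO in orange left of control in blue. Points are the 3 technical libraries of a pool and bars their mean. The 3 Fst cKO apex libraries of Id1 sit at 80.2 to 83.9 CPM, above the other 15 libraries.

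In the apex, Id1, Id3, Smad6, Smad7 and Bambi were higher in the Fst cKO pool than in the control pool, and Smad9 and Id2 were lower. Id1 stood 1.49-fold higher and Id3 1.26-fold higher. The genes that were higher are targets or inhibitors of the pathway, but Id2, also a target gene, was lower and Id4 did not pass. Of the genes for its signal transducers, Smad9 was lower and Smad1 and Smad5 did not pass. Of the 10 genes 5 passed as higher and 2 as lower, where 21.8% of all genes tested passed as higher, 18.8% as lower and 40.6% in either direction, and 53.4% of the 10905 tested genes averaging 10 CPM or more, a limit added after seeing the data that all 10 meet. Libraries of the genotypes did not overlap for 7 of the 10 genes and for 49.2% of all genes tested. At those shares neither count alone sets the 10 genes apart. None was called at a log2 change of 1, as 2.04% of all genes were, while 7 of them and 8454 of all genes stood at an unadjusted p under 0.05, and DESeq2 passed 7 of them and 6141 of all genes. The median log2 change was 0.14 over the 10 genes and 0.0047 over all genes tested.

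Among the Id genes, Id1, a direct target gene of BMP signals, had 83.9, 80.2 and 82.4 CPM in the Fst cKO apex libraries, against 58.0, 54.9 and 55.1 CPM in the control apex libraries. The groups did not overlap, and the log2 change was 0.58 ± 0.026 (standard error of the fit, adjusted p = 1.28e-19). Id1 was the only one of the 10 past a log2 change of 0.5, which 5.65% of all tested genes and 1.71% of those averaging 10 CPM or more also passed. Id3, which is often expressed together with Id1, had 199.95, 201 and 200.5 CPM in Fst cKO apex and 164, 158 and 163 CPM in control apex. Its libraries were also apart, with a log2 change of 0.33 ± 0.021 (adjusted p = 3.20e-15).

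Id2 went the other way. It had 72.6, 70.5 and 68.4 CPM in Fst cKO apex and 77.5, 79.3 and 75.9 CPM in control apex, a log2 change of -0.11 ± 0.025 (adjusted p = 0.000357). Its 3 Fst cKO libraries all lay under the 3 control libraries, by a small margin. Id4 averaged 53.5 ± 1.70 CPM in Fst cKO apex and 52.8 ± 0.877 CPM in control apex, with overlapping libraries and a log2 change of 0.04 ± 0.036 (adjusted p = 0.382).

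The inhibitory Smads were both higher. Smad6, whose protein blocks the BMP branch, had 42.9, 42.1 and 41.7 CPM in Fst cKO apex against 35.7, 34.1 and 33.9 CPM in control apex, a log2 change of 0.31 ± 0.034 (adjusted p = 2.54e-09). Smad7, whose protein blocks both branches, had 22.5, 24.0 and 23.6 CPM in Fst cKO apex against 18.3, 19.4 and 20.2 CPM in control apex, at 0.30 ± 0.045 (adjusted p = 1.33e-06). Neither gene had overlapping libraries between the genotypes, but on the log2(FPKM + 1) scale Smad7 stood at 0.23 and did not pass (limma, adjusted p = 0.0834). Bambi had 17.9, 17.4 and 18.8 CPM in Fst cKO apex and 16.1, 15.2 and 16.3 CPM in control apex, at 0.21 ± 0.055 (adjusted p = 0.00253).

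Of the genes for the receptor-regulated Smads, Smad9 was lower, with 50.9, 51.8 and 48.8 CPM in Fst cKO apex and 63.1, 60.3 and 62.0 CPM in control apex. Its log2 change was -0.27 ± 0.029 (adjusted p = 1.83e-09), and the groups were apart. Smad1 averaged 42.1 ± 0.784 CPM in Fst cKO apex and 40.9 ± 1.52 CPM in control apex (log2 change 0.07 ± 0.041, adjusted p = 0.205). Smad5 averaged 73.4 ± 1.06 CPM in Fst cKO apex and 73.7 ± 0.104 CPM in control apex, and its fitted change of 0.016 ± 0.027 (adjusted p = 0.694) took the other sign, -0.0068, when libraries were scaled by their totals alone.

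**Figure D2:**
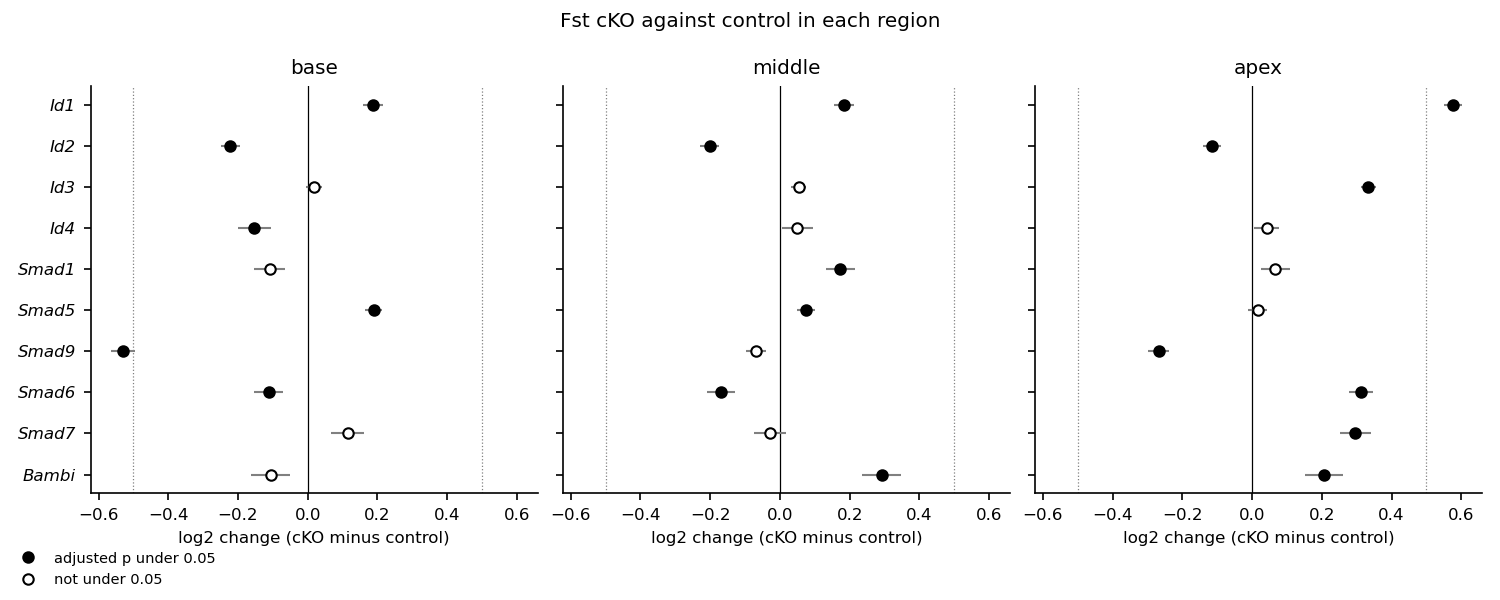
Log2 change of each gene, Fst cKO minus control (x axis), in base, middle and apex. Points are edgeR estimates with standard errors over technical libraries, filled where the adjusted p is under 0.05, and dotted lines mark 0.5 in each direction. In the apex 5 genes lie right of 0 with filled points, led by Id1 at 0.58.

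Markers of other cell types differed between these apex pools as well. Endothelial cells express Id1, Id3, Smad6 and Smad7, and of 10 endothelial and pericyte markers 3 passed as higher and 1 as lower. Their summed level ran from 762 to 770 CPM in Fst cKO apex and from 785 to 798 CPM in control apex, with none at 0 and a median log2 change of 0.05. Emcn, an endothelial sialomucin, was the marker that passed as lower, at 185 CPM in Fst cKO apex and 227 CPM in control apex. Of the 12 receptor genes described below, 4 passed as higher and 1 as lower. The largest of these changes were those of Acvrl1 and Eng, which endothelium expresses and which were higher. All 6 red blood cell markers were called as higher, with sums of 842 to 861 CPM in Fst cKO apex and 346 to 350 CPM in control apex. All 8 osteoblast markers passed as higher, at 297 to 303 CPM in Fst cKO apex and 179 to 181 CPM in control apex, and all 8 neutrophil markers, at 127 to 133 CPM and 80.4 to 81.7 CPM in the same order. Of 6 fibrocyte markers 5 passed as higher, with sums of 24812 to 24965 CPM in Fst cKO apex and 22595 to 22698 CPM in control apex. Of 8 hair cell markers 4 passed as lower, at 386 to 389 CPM in Fst cKO apex and 446 to 448 CPM in control apex. Airway epithelium markers summed to 359 to 365 CPM in Fst cKO apex and 23.4 to 26.0 CPM in control apex, where Sec14l3 was at 0. All 6 Schwann cell markers passed as lower, at 3573 to 3620 CPM in Fst cKO apex and 4674 to 4687 CPM in control apex. Of 7 supporting cell markers 5 passed as higher and 2 as lower, with sums of 3744 to 3762 CPM in Fst cKO apex and 3519 to 3530 CPM in control apex. Of 8 oligodendrocyte and astrocyte markers 5 passed as lower, at 23.2 to 24.6 CPM in Fst cKO apex, where Olig2 was at 0, and 29.0 to 31.8 CPM in control apex. The part of these cell types in the result was not tested.

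In the middle, Id1 was again higher and Id2 again lower in the Fst cKO pool, and Bambi and Smad1 were higher, while Smad6 was lower. Of the 10 genes 4 passed as higher and 2 as lower, against 17.9% higher, 17.7% lower and 35.7% in all of the genes tested, and 44.9% of those averaging 10 CPM or more. None was called at a log2 change of 1, as 2.72% of all genes were, while 8 of them and 7768 of all genes had an unadjusted p under 0.05, and DESeq2 passed 6 of them and 5209 of all genes. The largest change was that of Bambi. It had 15.8, 14.9 and 15.8 CPM in Fst cKO middle and 12.1, 13.1 and 12.5 CPM in control middle, a log2 change of 0.29 ± 0.057 (adjusted p = 8.44e-05).

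Id1 had 51.7, 50.9 and 51.6 CPM in Fst cKO middle and 44.5, 45.9 and 44.2 CPM in control middle, at a log2 change of 0.18 ± 0.029 (adjusted p = 2.57e-06). Id2 had 57.0, 57.5 and 58.0 CPM in Fst cKO middle and 64.4, 66.4 and 65.7 CPM in control middle, at -0.20 ± 0.026 (adjusted p = 8.86e-08). The libraries of both genes were apart between the genotypes, as were those of 45.9% of all genes tested. Smad1 averaged 38.6 ± 1.62 CPM in Fst cKO middle and 34.0 ± 1.23 CPM in control middle, at 0.17 ± 0.041 (adjusted p = 0.00103). Smad6 averaged 22.7 ± 1.16 CPM in Fst cKO middle and 25.2 ± 0.863 CPM in control middle, at -0.17 ± 0.040 (adjusted p = 0.000949), opposite in sign to its change in the apex. Smad5 passed at 0.08 ± 0.025 (adjusted p = 0.0168), which 3 of 13 alternatives took past 0.05. Id3 at 0.05, Id4 at 0.05, Smad9 at -0.07 and Smad7 at -0.03 did not pass, with adjusted p from 0.0538 to 0.714. Id3 passed in 6 and Smad9 in 1 of 13 alternatives.

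Osteoblast markers were higher in the middle pool too, 8 of 8, with sums of 633 to 646 CPM in Fst cKO middle and 291 to 293 CPM in control middle, and osteoblasts answer to BMPs. All 8 oligodendrocyte and astrocyte markers were lower, at 56.2 to 58.6 CPM in Fst cKO middle and 209 to 214 CPM in control middle. Endothelial markers had 1 higher and 2 lower of 10, at 767 to 778 CPM in Fst cKO middle and 784 to 788 CPM in control middle. Of 8 hair cell markers 6 passed as higher, at 206 to 208 CPM in Fst cKO middle and 169 to 173 CPM in control middle. Of 7 supporting cell markers 2 passed as higher and 5 as lower, at 2730 to 2756 CPM in Fst cKO middle and 2855 to 2880 CPM in control middle, and of 6 fibrocyte markers 1 as higher and 5 as lower, at 24721 to 24831 CPM and 26225 to 26280 CPM in the same order. Of 8 neutrophil markers 6 passed as lower, at 233 to 234 CPM in Fst cKO middle and 266 to 268 CPM in control middle. The part of these cell types in the middle result was not tested.

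In the base, where Fst is lowest, the largest difference among the 10 genes was that of Smad9, lower in the Fst cKO pool at 0.69 of the control level. Id1 and Smad5 were higher, and Id2, Id4 and Smad6 passed as lower. These make 2 higher and 4 lower of 10, against 16.5% higher, 19.6% lower and 36.1% in all of the genes tested, and 44.7% of those averaging 10 CPM or more. None was called at a log2 change of 1, as 3.03% of all genes were, while 8 of them and 7709 of all genes had an unadjusted p under 0.05, and DESeq2 passed 5 of them and 5448 of all genes.

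Smad9 had 31.2, 31.7 and 33.6 CPM in Fst cKO base and 46.8, 45.5 and 46.1 CPM in control base, a log2 change of -0.53 ± 0.035 (adjusted p = 5.14e-15). It was the only one of the 10 past a change of 0.5, as were 8.12% of all genes and 3.73% of those averaging 10 CPM or more. Smad5 had 95.4, 93.7 and 92.6 CPM in Fst cKO base and 81.0, 79.8 and 85.5 CPM in control base, at 0.19 ± 0.026 (adjusted p = 1.93e-07), so these related transducer genes differed in opposite directions. Id1 averaged 54.2 ± 0.440 CPM in Fst cKO base and 47.3 ± 0.951 CPM in control base, at 0.19 ± 0.029 (adjusted p = 2.88e-06). Id2 averaged 62.7 ± 0.790 CPM in Fst cKO base and 72.8 ± 1.36 CPM in control base, at -0.22 ± 0.027 (adjusted p = 1.39e-08). Neither Id1 nor Id2 overlapped between the genotypes, and libraries were apart for 6 of the 10 genes and 44.2% of all genes tested.

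Id4 averaged 27.4 ± 1.78 CPM in Fst cKO base and 30.2 ± 1.68 CPM in control base, at -0.15 ± 0.047 (adjusted p = 0.00968), and 3 of 13 alternatives took it past 0.05. Smad6 stood at -0.11 ± 0.043 with an adjusted p of 0.0437, and 12 of 13 alternatives took it past 0.05. Id3, Smad1, Smad7 and Bambi did not pass, at 0.02, -0.11, 0.11 and -0.11. Smad1 passed in 5, Bambi in 2 and Smad7 in 1 of 13 alternatives. All 8 cerebellar neuron markers were called as higher, with sums of 354 to 365 CPM in Fst cKO base and 86.5 to 89.7 CPM in control base, where Skor2 and Gabra6 were at 0. Red blood cell markers summed to 1415 to 1433 CPM in Fst cKO base and 478 to 485 CPM in control base, and Schwann cell markers to 2671 to 2704 CPM and 3246 to 3305 CPM in the same order. Neutrophil markers summed to 307 to 312 CPM in Fst cKO base and 95.4 to 98.3 CPM in control base, and osteoblast markers to 538 to 543 CPM and 850 to 867 CPM in the same order. Of the 8 osteoblast markers 4 passed as lower and 1 as higher. Of 7 supporting cell markers 6 passed as higher and 1 as lower, at 3052 to 3058 CPM in Fst cKO base and 2839 to 2847 CPM in control base. Their part in the base result was not tested.

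**Figure D3:**
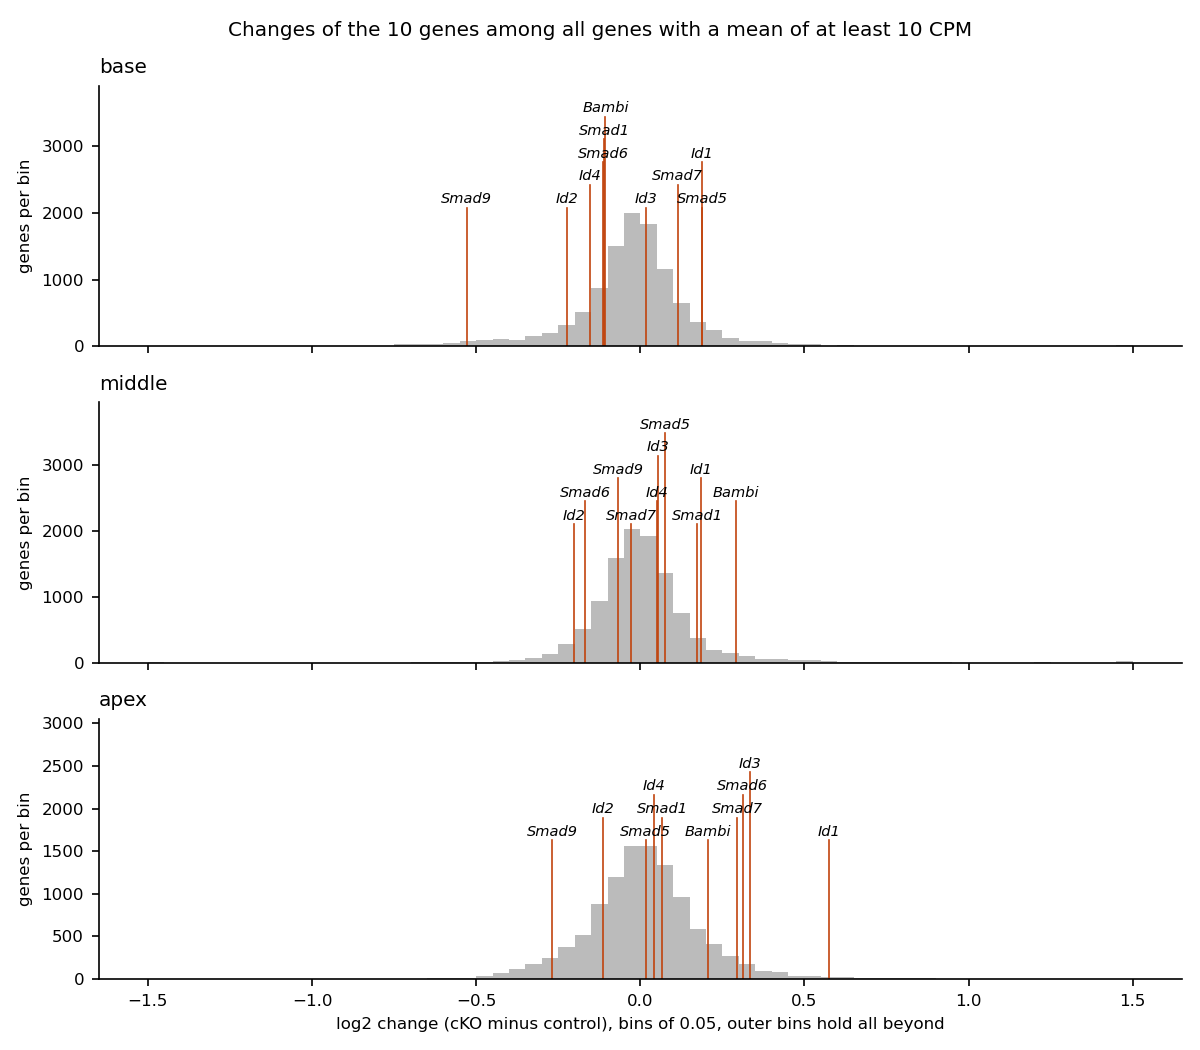
Distribution of the log2 change, Fst cKO minus control, over the 10905 tested genes averaging 10 CPM or more (grey bars, genes per bin of 0.05), with the 10 genes marked by lines. In the apex Id1 at 0.58 lies in the right tail and Smad9 at -0.27 left of the centre, and in the base Smad9 lies in the left tail at -0.53.

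The difference between the genotypes was not the same in the 3 regions. For 9 of the 10 genes the effect was more upward in the apex than in the base, and Smad5 was the exception. All 10 passed this test of the difference, 9 as higher and 1 as lower, against 24.8% of all genes tested and 33.2% of those averaging 10 CPM or more. DESeq2 passed 7 of the 10 and 3560 of all genes. By direction, 16.3% of all genes tested passed as higher and 8.51% as lower. The difference was 0.42 ± 0.055 for Smad6 (adjusted p = 1.48e-07), 0.39 ± 0.039 for Id1 (adjusted p = 7.90e-10), 0.32 ± 0.031 for Id3 (adjusted p = 5.53e-10) and 0.31 ± 0.078 for Bambi (adjusted p = 0.00237). Smad5 stood at -0.17 ± 0.038 (adjusted p = 0.000535). For Smad7, Id2, Smad1 and Id4 the differences of 0.18, 0.11, 0.18 and 0.19 did not pass in 12, 9, 8 and 3 of 19 alternatives. None of the 10 reached a difference of 0.5, which 5.20% of all genes did, or of 1, which 2.41% did. In the same test all 8 osteoblast markers passed as higher and all 8 neutrophil markers as lower. Of 7 airway epithelium markers tested 6 passed as higher, and of 8 oligodendrocyte and astrocyte markers 7 as lower. Endothelial and pericyte markers had 3 higher and 1 lower of 10. The part of these cell types in the difference was not tested.

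Between apex and middle the effects of Smad6 (difference 0.48 ± 0.053, adjusted p = 2.73e-09), Id1 (0.39 ± 0.039), Smad7 (0.32 ± 0.064) and Id3 (0.28 ± 0.031) were more upward in the apex, and that of Smad9 was more downward (-0.20 ± 0.041). That of Smad7 did not pass on the log2(FPKM + 1) scale (limma, adjusted p = 0.154). These 4 higher and 1 lower compare with 19.9% higher, 18.1% lower and 38.0% in all of the genes tested. Between middle and base 4 passed as higher and 1 as lower, against 18.4% higher, 15.1% lower and 33.4% in all. Smad9 (0.46 ± 0.045), Bambi (0.40 ± 0.079), Smad1 (0.28 ± 0.061) and Id4 (0.20 ± 0.065) were more upward in the middle and Smad5 (-0.11 ± 0.036) more downward, with Id4 not passing in 4 and Smad5 in 2 of 19 alternatives. The effects of Id1 and Id2 showed no difference past the threshold between middle and base, at -0.0032 ± 0.041 and 0.02 ± 0.037. None of the 10 reached a difference of 1, as 3.60% of all genes did between apex and middle and 4.70% between middle and base. Between apex and middle all 8 neutrophil and all 6 red blood cell markers passed as higher and all 6 Schwann cell markers as lower. Between middle and base these 3 lists passed whole in the opposite directions. Their part in these differences was not tested.

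Over the 3 regions together, with the 6 pools as the units and region as a factor, no gene of the 19446 tested passed, which is 0.00% called, and none of the 10 did. The estimates were 0.31 ± 0.091 for Id1 (adjusted p = 0.395), -0.18 ± 0.041 for Id2 (adjusted p = 0.327) and -0.29 ± 0.094 for Smad9 (adjusted p = 0.411). These 3 had unadjusted p-values of 0.0195, 0.00792 and 0.0288, as 2133 of all genes had values under 0.05. In the library fit Id1 passed as higher and Id2 as lower in 3 of 3 regions, and Smad9 passed as lower in base and apex but not in the middle. The share of all genes that passed alike in 3 regions was not computed. In each region 35.7% to 40.6% of all genes tested passed in either direction. DESeq2 on the same pools passed 365 genes and called 43, with 0 of the 10 passing. This fit has 2 residual degrees of freedom, and whether the regions of 1 genotype share mice is not given in the sources used here.

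Along the control cochlea, Id4 was the most apical of the 10 genes. It had 29.95, 31.9 and 28.6 CPM in control base, 29.4, 26.4 and 29.3 CPM in control middle and 52.1, 52.6 and 53.8 CPM in control apex. The apex libraries stood clear of the others, and base and middle overlapped. The log2 change was 0.74 ± 0.040 for apex against base (adjusted p = 1.19e-17) and 0.86 ± 0.041 for apex against middle (adjusted p = 3.38e-19). In the Fst cKO, Id4 was also highest in the apex, with 27.4 ± 1.78 CPM in the base, 29.6 ± 0.738 CPM in the middle and 53.5 ± 1.70 CPM in the apex pool.

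Smad6 and Smad9 were also apical in the control. Smad6 averaged 34.6 ± 0.979 CPM in control apex and 24.7 ± 0.489 CPM in control base, a log2 change of 0.42 ± 0.038 (adjusted p = 1.13e-11). Smad9 averaged 46.1 ± 0.633 CPM in control base, 55.5 ± 1.33 CPM in control middle and 61.8 ± 1.40 CPM in control apex, with the 3 groups apart, and the apex against base change was 0.35 ± 0.029 (adjusted p = 1.20e-12). In the Fst cKO the step between middle and apex was not in that order, with 53.4 ± 1.09 CPM in middle and 50.5 ± 1.5 CPM in apex. Smad5 ran the other way, at 73.7 ± 0.104 CPM in control apex and 82.1 ± 3.0 CPM in control base (-0.22 ± 0.026, adjusted p = 8.72e-09). Id1 passed as higher in the apex at 0.17 ± 0.029 and Smad1 at 0.11 ± 0.042, which 6 of 13 alternatives took past 0.05, and Bambi passed as lower at -0.20 ± 0.054. Id2, Id3 and Smad7 did not pass, though Id2 and Smad7 each did in 1 of 13 alternatives.

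For apex against base in the control, 5 of 10 passed as higher and 2 as lower, against 26.7% higher, 25.8% lower and 52.5% in all of the genes tested, and 1, Id4, stood past a log2 change of 0.5, against 14.0%. For apex against middle 8 passed as higher and 1, Smad5, as lower, against 23.1% higher, 22.4% lower and 45.5% in all, and the median of the 10 was 0.21 where that of all genes was 0.0058. Smad7 was the gene that did not pass, and Id4 was again the 1 gene past 0.5, against 12.4% of all genes. For middle against base 1 passed as higher, Smad9 (0.24 ± 0.030), and 6 as lower, led by Bambi (-0.50 ± 0.057), against 15.9% higher, 15.6% lower and 31.5% in all. Of these 6, Id4, Smad1 and Id1 did not pass in 7, 6 and 2 of 13 alternatives. None was called at a log2 change of 1 in any of the 3, where 5.48%, 5.30% and 2.73% of all genes were. At an unadjusted p under 0.05 the counts were 7, 9 and 8 of the 10 and 10170, 9147 and 7079 of all genes, and DESeq2 passed 6, 9 and 5 of the 10 and 8324, 7040 and 4638 of all genes. Libraries were apart for 8, 9 and 6 of the 10 in the same order, and for 59.6%, 54.8% and 42% of all genes. These counts rest on CPM scaled by library totals alone, which is not the scaling of the fit. For apex against base they include Id2 and Id3, which did not pass. Id3 was apart as higher in CPM, while its fitted change was -0.017 (edgeR, adjusted p = 0.544).

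**Figure D4:**
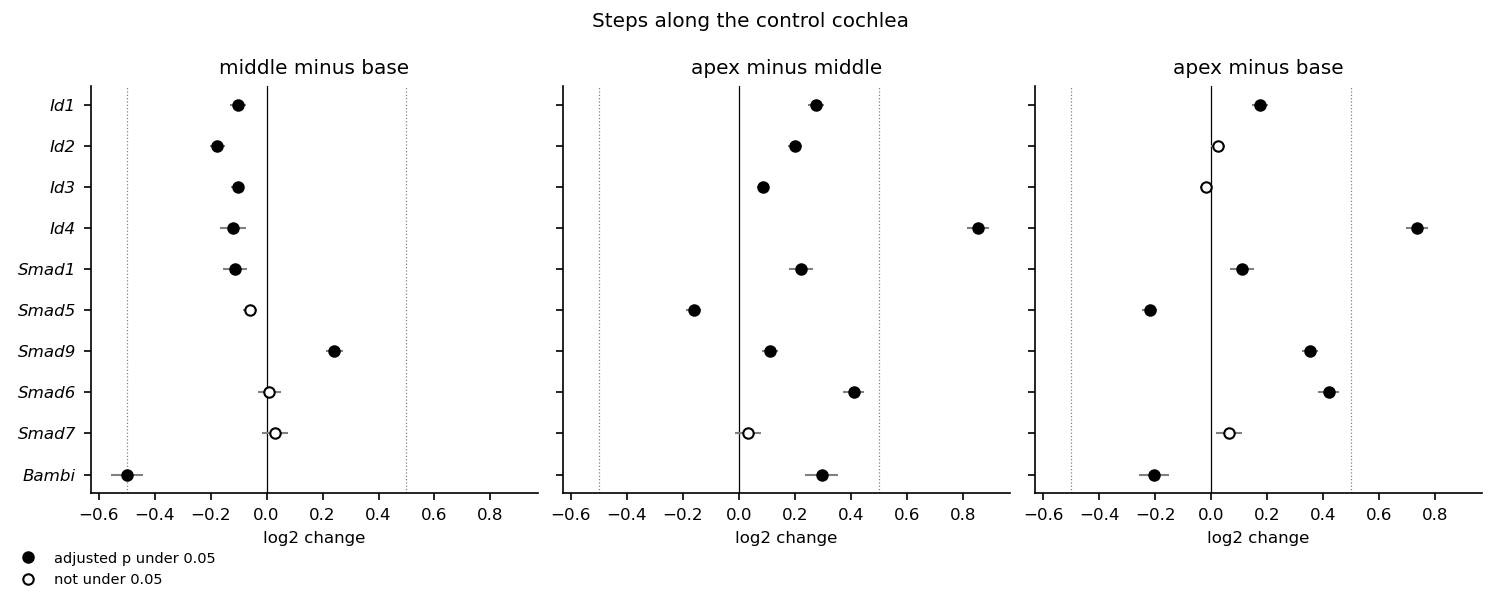
Log2 change of each gene for the steps along the control cochlea (x axis), middle minus base, apex minus middle and apex minus base. Points are edgeR estimates with standard errors over technical libraries, filled where the adjusted p is under 0.05, with dotted lines at 0.5. Id4 lies farthest right in both apex panels, at 0.86 and 0.74.

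Cell type markers differed along the control cochlea as well. All 8 hair cell markers passed as higher in the apex, with sums of 446 to 448 CPM in control apex and 143 to 146 CPM in control base, and all 6 Schwann cell markers, at 4674 to 4687 CPM and 3246 to 3305 CPM in the same order. All 8 osteoblast markers passed as lower, at 179 to 181 CPM in control apex and 850 to 867 CPM in control base, as did 8 of 10 endothelial markers, at 785 to 798 CPM and 808 to 821 CPM. Between control apex and base 2 endothelial markers passed as higher. For apex against middle all 8 hair cell markers passed as higher, at 446 to 448 CPM in control apex and 169 to 173 CPM in control middle. All 8 oligodendrocyte and astrocyte markers passed as lower there, at 29.0 to 31.8 CPM in control apex and 209 to 214 CPM in control middle, as did all 8 neutrophil markers, at 80.4 to 81.7 CPM and 266 to 268 CPM in the same order. All 6 red blood cell markers passed as lower too, at 346 to 350 CPM in control apex and 904 to 909 CPM in control middle. For middle against base all 8 neutrophil and all 6 red blood cell markers passed as higher and all 8 osteoblast markers as lower. The part of these cell types in the order of the 10 genes was not tested.

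A list of 60 other pathway genes gives the setting. In the apex 27 of 60 passed as higher and 11 as lower, where 21.8% of all genes tested passed as higher and 18.8% as lower, with a median log2 change of 0.09. Of 14 ligand genes 6 were higher and 2 lower, with Tgfb1 (0.61 ± 0.067) and Bmp4 (0.48 ± 0.042) the largest changes, Bmp4 at 32.0 CPM in Fst cKO apex and 23.2 CPM in control apex. Of 12 receptor genes 4 were higher and 1 lower, led by Acvrl1 (0.34 ± 0.044) and Eng (0.30 ± 0.026), which encode a type I receptor and a co-receptor of endothelium. Of 11 antagonist genes 6 were higher and 2 lower. Fst stood at -1.29 ± 0.063, and Sost, an antagonist made by osteocytes, at 0.93 ± 0.056. Of 10 other Smads and Smad regulators 4 were higher and 3 lower, led by Tgif1 (-0.20 ± 0.048) and Ski (0.19 ± 0.023). Among the 3 E protein genes Tcf3 was higher (0.22 ± 0.032), Tcf4 lower (-0.13 ± 0.026) and Tcf12 also higher. Of 5 further BMP target genes 2 were higher, Dlx5 (0.56 ± 0.21) and Atoh8 (0.22 ± 0.070), and of 5 activin and TGF-beta target genes 3 were higher and 2 lower, Ctgf among the higher (0.43 ± 0.021).

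In the middle 24 of the 60 passed as higher and 7 as lower, where 17.9% of all genes tested passed as higher and 17.7% as lower, with a median of 0.06. The largest changes by group were those of the ligand genes Gdf10 (1.06 ± 0.069) and Bmp3 (0.64 ± 0.086), the receptor genes Tgfbr2 (-0.24 ± 0.013) and Tgfbr1 (0.18 ± 0.034) and the antagonist genes Sost (1.26 ± 0.045) and Fst (-1.10 ± 0.099). Skil (0.11 ± 0.036) and Smurf1 (-0.10 ± 0.027) led the Smad regulators, Tcf12 (0.09 ± 0.026) was the E protein gene that passed, and Dlx5 (0.62 ± 0.16) and Hey1 (0.26 ± 0.047) led the BMP targets. Of the 5 activin and TGF-beta targets 4 were higher, Ltbp2 among them (0.34 ± 0.041). In the base 13 of the 60 passed as higher and 15 as lower, where 16.5% of all genes tested passed as higher and 19.6% as lower, with a median of 0.01. There the changes named were those of Gdf10 (0.36 ± 0.058) and Bmp2 (-0.28 ± 0.11), Acvr1c (1.21 ± 0.29) and Bmpr1b (0.21 ± 0.050), Sostdc1 (-0.67 ± 0.062) and Sost (-0.30 ± 0.043), Tgif1 (-0.18 ± 0.051) and Zfp423 (-0.18 ± 0.040), Tcf12 (0.09 ± 0.027) and Ctgf (0.27 ± 0.017). None of the 5 further BMP target genes passed in the base.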

How the data were processed

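RNA was pooled per region and genotype and split into 3 technical libraries, for which the labels name a TruSeq RNA kit and Ribo-Zero. STAR 2.5.2b, Cuffdiff 2.2.1 and the build GRCm38/mm10 stand, without roles, in the submitters' processing notes. The deposited table holds estimated counts (expected counts) per gene and library from a step not given in the sources used here, 89.2% to 89.9% of them whole within 1e-06, and FPKM values computed by the authors per library.

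Counts were rounded, scaled to CPM by library totals, and fitted with edgeR 4.0.16 (R 4.3.3): filterByExpr, TMM factors of 0.977 to 1.03, 1 design of 6 groups, two-sided quasi-likelihood tests and Benjamini-Hochberg adjustment over 17901 genes. A second fit took the counts summed per pool (6 pools, 19446 genes) and had region as a term. Common biological coefficients of variation were 0.00988 and 0.116. Alternatives used DESeq2 1.42.0, limma 3.58.1 on log2(FPKM + 1), other scaling, filter, fold threshold, samples and a replicate block. A floor of 3 counts is 0.0889 to 0.123 CPM and covers counting error only. Libraries of a pool differed by a chi-square of 1.19 to 1.59 per degree of freedom and were kept apart. The edgeR step was tested on simulated data.

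The 10 genes and all lists were chosen with earlier results of these data known. All 10 are named, the pathway lists by counts with the 2 largest passing changes in each genotype comparison, of which 1 gene is not reported here, and for each Id gene the 3 genes of most like pattern. Of 8 red blood cell markers 6 were found by symbol. Each of the other lists was found whole.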

Additional observations from a re-analysis of the deposited data

Results flagged for a closer look

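The effect of genotype differed between regions, by the test of that difference in edgeR, for the values below, each a log2 difference of the Fst cKO minus control effects. For apex minus base these were Smad6 at 0.42, Id1 at 0.39, Id3 at 0.32, Bambi at 0.31, Smad9 at 0.26, Id4 at 0.19, Smad7 at 0.18, Smad1 at 0.18, Id2 at 0.11 and Smad5 at -0.17. For apex minus middle they were Smad6 at 0.48, Id1 at 0.39, Smad7 at 0.32, Id3 at 0.28 and Smad9 at -0.20. For middle minus base they were Smad9 at 0.46, Bambi at 0.40, Smad1 at 0.28, Id4 at 0.20 and Smad5 at -0.11. Smad6 changed sign between regions: it was higher in the Fst cKO apex (0.31) and lower in the Fst cKO middle (-0.17). Smad9 passed as lower in base (-0.53) and apex (-0.27), and its value of -0.07 in the middle did not pass.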

How the results depend on the processing

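Each group is 1 pool, so spread between mice is not measured. In the following lists the order is Fst cKO against control in base, middle and apex, control apex against base, apex against middle and middle against base, and the genotype effect for apex minus base, apex minus middle and middle minus base. The genes called numbered 542, 487, 365, 981, 949, 488, 432, 645 and 841. With limma on log2(FPKM + 1) they were 122, 111, 46, 253, 203, 84, 111, 170 and 246. At a log2 threshold of 0.5 they were 1453, 1174, 1011, 2515, 2214, 1168, 930, 1522 and 1753, and with no fold threshold 6459, 6385, 7266, 9396, 8139, 5647, 4439, 6796 and 5985. Among genes averaging 10 CPM or more, chosen after seeing the data, they were 51, 51, 24, 189, 126, 47, 42, 76 and 117. Of the 10 genes 0 were called in each of these comparisons; at 0.5 the count was 1 in the base, the apex, control apex against base and control apex against middle, and with no fold threshold 6, 6, 7, 7, 9, 7, 10, 5 and 5. With a library left out, genes called ranged over 511 to 568, 477 to 489, 351 to 375, 958 to 994, 932 to 950, 457 to 490, 404 to 424, 609 to 638 and 793 to 825. On summed pools 0 genes were called, against 6 with no filter on low counts, 43 with DESeq2, 18 without the base pools and 1 without the middle pools.

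Of the recomputed values of the 10 genes 1298 kept their direction and side of the threshold, 79 no longer passed, 22 newly passed and 21 changed sign, all of them values that had not passed. With library totals, Id3 turned to 0.051 for control apex against base, Smad5 to -0.0068 in the apex and Id1 to 0.00060 for middle minus base, and Id1 there to 0.0020 with no filter. With FPKM, Smad7 turned to -0.0023 for control middle against base. With 1 library left out, ranges that crossed 0 were -0.0057 to 0.041 for Id3 in the base, -0.00049 to 0.076 for Id4 in the middle, -0.0045 to 0.067 for Smad7 for control apex against middle, -0.019 to 0.027 for Smad6 for control middle against base, -0.034 to 0.043 for Id4 for apex minus middle and -0.020 to 0.014 for Id1 for middle minus base. On summed pools Id4 turned to 0.044 without base, Smad1 to -0.015 without middle and Smad6 to -0.13 without apex. The cause of these changes was not tested.

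Same-numbered libraries did not deviate together: 1 of 18 correlations of their deviations was over 0.1, with a range of -0.18 to 0.11. With the replicate block 544, 489 and 363 genes were called in base, middle and apex, 984, 947 and 485 in the control steps and 433, 638 and 828 for the differences. Of 90 values of the 10 genes 89 kept their side, and Smad1 in the base newly passed at -0.11 (adjusted p = 0.0462).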

Other observations

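The 6 group means gave a description of which genes shared a pattern, with no test, since the points share libraries and 12396 genes were compared over 6 points. Among the 10 genes, Id1 and Id3 had a Pearson r of 0.98, Id1 and Smad7 0.97, Id4 and Smad6 0.96, and Smad5 and Smad6 -0.85, on mean log2 CPM. Among genes averaging 5 CPM or more, those most like Id1 were Galk1 (r = 0.996), Tspan5 (0.991) and Ociad2 (0.989), and Galk1 stood at 38.8 CPM in Fst cKO apex and 29.7 CPM in control apex. Most like Id2 were Trrap (0.994), Hid1 (0.987) and Ercc1 (0.985), and most like Id3 were Mn1 (0.997), Rnaset2a (0.995) and Slc35a4 (0.991). Most like Id4 were Creb3l4 (0.997), Cst6 (0.996) and Tmem64 (0.995), and Cst6 stood at 25.7 CPM in Fst cKO apex and 24.5 CPM in control apex, against 13.0 to 13.4 CPM in the other 4 groups. An r over 0.95 was found for 75 genes with Id1, 23 with Id2, 64 with Id3 and 369 with Id4.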
